A study of Rattus norvegicus with 24 samples.

Results

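The genes described here are markers of microglia, the resident macrophages of the brain. Rows of the count table were chosen by 10 gene symbols, Aif1, Cx3cr1, P2ry12, Tmem119, Csf1r, Itgam, Cd68, C1qa, C1qb and Trem2. Of the 35032 genes in the table, 9 carried one of these symbols. Itgam, which encodes an integrin chain of the complement receptor, matched no row and was not analysed here. The transcripts were measured by mRNA sequencing in male Sprague-Dawley rats, bought at 7 weeks of age, in a hypothalamic and an amygdalar nucleus, the paraventricular nucleus (PVN) and the central nucleus (CEA). The 24 libraries formed 8 groups of 3, a group for each of the 2 regions and 4 treatments. NC rats had no operation. HT rats had about 20% of the left liver lobe removed under isoflurane. EA rats had the same hepatectomy with electroacupuncture through needles on one side at the Zusanli and Sanyinjiao points, and SEA rats had the hepatectomy and the needles without current (sham). Rats of all 4 treatments, NC included, were held awake in a restraint device for the length of the stimulation, and tissue was taken 24 h after the last session. The study asked whether gene expression in these stress-related nuclei changed after surgery and after electroacupuncture.

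Microglia depend on signalling through the receptor Csf1r for survival and watch their surroundings with receptors for signals from neurons, such as Cx3cr1 for fractalkine and P2ry12 for purine nucleotides. They clear debris and synapses by phagocytosis, for which Trem2 reads lipids and apolipoproteins and the C1q proteins tag targets for the complement system. Tmem119 and P2ry12 are known as markers of resting microglia, whereas Aif1 (the protein Iba1), Csf1r and Cd68 are shared with macrophages at the borders of the brain and in blood. In tissue libraries such as these, fewer microglia and less RNA per microglia cannot be told apart.

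Library totals ran from 13152772 to 18607032 counts. CPM is the unit in which library totals are made equal, and a single count equalled 0.0537 to 0.0760 CPM before any further scaling. All CPM values given below are also scaled by TMM factors, which set libraries to a common scale. Neuron markers separated the 2 regions. Of the tested markers of PVN neurons, 9 of 9 were lower in the CEA, Otp and Sim1 among them. Of those of CEA neurons, 8 of 9 were higher there and 1 was lower. Those that were higher included Drd1 and Adora2a, which neurons of the neighbouring striatum also express. Slc17a7, on the list of neuronal genes, averaged 108 CPM in the CEA against 10.7 CPM in the PVN. Whether the CEA samples held neighbouring tissue was not tested. Genes of choroid plexus and ependyma summed to 1097 CPM in CEA NC replicate 2, 403 CPM in CEA EA replicate 1 and 1848 CPM in CEA SEA replicate 2, against at most 49.1 CPM in the other CEA libraries and 45.1 to 96.4 CPM in the PVN. Mitochondrial genes took 3.80% of the counts of CEA EA replicate 2 and 10.1% to 14.4% in the rest of the CEA. The region result is therefore given below with and without these 4 libraries. The study left a CEA EA library out of its own co-expression network because of large differences, without saying which. CEA HT replicate 2 had the lowest median correlation with the other libraries of its region (0.960 across genes). In the PVN, NC replicates 1 and 3 had the lowest (0.965 and 0.972, against at least 0.981 in the others).

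All 9 microglia genes were higher in the CEA than in the PVN, by 1.44-fold (P2ry12) to 1.88-fold (Cd68). In the edgeR fit over all 24 libraries each passed the threshold of 0.05 on the adjusted p-value (treatment as a covariate), a rule that 26.9% of 17768 tested genes met in that direction and 56.3% in either. The median log2 fold change of the 9 genes was 0.66, against -0.01 over all tested genes. Their summed level was 320 to 519 CPM in the CEA (median 432) and 240 to 323 CPM in the PVN (median 270), a ratio of medians of 1.60. Without the 4 CEA libraries named above, a choice made after seeing the data, all 9 again passed (50.4% of genes did in that fit), with log2 fold changes of 0.44 (P2ry12) to 0.89 (Cd68). The plot of region differences gives each gene over all libraries and within each treatment.

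**Figure D1:**
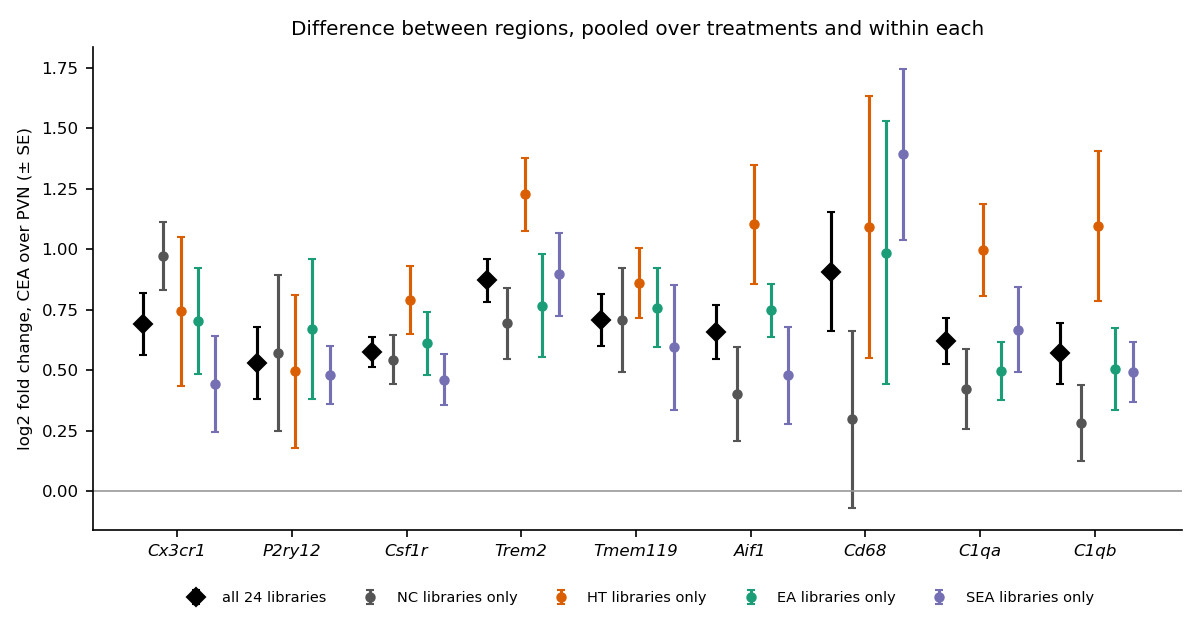
Log2 fold change of each gene between CEA and PVN with its SE (vertical axis), from all 24 libraries (black diamonds) and from the 6 libraries of each treatment alone (coloured points). All points lie above 0, and the 24-library values run from 0.53 for P2ry12 to 0.91 for Cd68.

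Among the surface receptors, Cx3cr1 (ENSRNOG00000018509, chromosome 8, positions 128740756 to 128754514, minus strand, as given in the table, which names no genome build) ran from 22.9 to 50.3 CPM in the 12 CEA libraries (median 36.2) and from 16.2 to 31.7 CPM in the 12 PVN libraries (median 22.9). The 2 ranges overlapped, with 9 CEA libraries above the highest PVN library, and the regions differed by 0.69 ± 0.13 on the log2 scale (fold change ± SE, edgeR adjusted p = 7.43e-05). P2ry12 (ENSRNOG00000013902, chromosome 2, positions 149441598 to 149444548, minus strand) ran from 11.6 to 33.4 CPM in the CEA (median 20.7) and from 9.37 to 22.4 CPM in the PVN (median 14.6). It had the smallest difference of the 9 genes, 0.53 ± 0.15 (edgeR adjusted p = 0.00434), and only 3 CEA libraries exceeded all PVN libraries. P2ry12 lies wholly inside Med12l on the opposite strand, with 2951 shared bases. The libraries were strand-specific, but whether counting used strand is not given in the sources used here, so the count of P2ry12 is uncertain. Med12l itself was between 15.3 and 46.8 CPM in the CEA and between 26.6 and 61.3 CPM in the PVN, the opposite order to P2ry12.

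Csf1r, the receptor for the growth factors CSF1 and IL-34 (ENSRNOG00000018414, chromosome 18, positions 56414488 to 56458300, plus strand), was the steadiest of the 9 genes between libraries of a group. It ran from 110 to 167 CPM in the CEA (median 135) and from 78.9 to 109 CPM in the PVN (median 88.7), without overlap. Its log2 fold change was 0.58 ± 0.06 (edgeR adjusted p = 3.12e-08). Trem2, which signals through the adaptor Tyrobp (ENSRNOG00000013578, chromosome 9, positions 14611561 to 14618013, minus strand), ran from 12.3 to 17.95 CPM in the CEA (median 14.8) and from 7.08 to 12.2 CPM in the PVN (median 7.49). The regions did not overlap here either, and the log2 fold change of 0.87 ± 0.09 had the smallest adjusted p of the set (edgeR adjusted p = 1.58e-08). Csf1r and Trem2 were the 2 genes of the 9 without overlap. Of all tested genes, 14.3% had no overlap between regions, and 6.46% had none and were higher in the CEA.

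Of the marker genes of cell identity, Tmem119 (ENSRNOG00000000700, chromosome 12, positions 48598647 to 48605704, plus strand) encodes a membrane protein of unknown function. It ran from 24.4 to 58.4 CPM in the CEA (median 42.4) and from 17.4 to 38.6 CPM in the PVN (median 25.1), with a log2 fold change of 0.71 ± 0.11 (edgeR adjusted p = 5.44e-06). Aif1, an actin-binding protein (ENSRNOG00000000853, chromosome 20, positions 5161333 to 5166448, minus strand), ran from 15.5 to 25.7 CPM in the CEA (median 22.4) and from 7.52 to 19.5 CPM in the PVN (median 13.7). For Aif1, 10 of 12 CEA libraries lay above the whole PVN range, and the log2 fold change was 0.66 ± 0.11 (edgeR adjusted p = 2.45e-05). Cd68, a glycoprotein of the lysosome (ENSRNOG00000037563, chromosome 10, positions 56268720 to 56270640, minus strand), was scarce, with 10 to 31 counts per CEA library and 5 to 25 per PVN library. Its 0.640 to 2.02 CPM in the CEA (median 1.37) and 0.303 to 1.33 CPM in the PVN (median 0.623) gave the largest and least precise difference of the 9 genes, 0.91 ± 0.25 (edgeR adjusted p = 0.00314).

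The complement genes C1qa and C1qb encode chains of C1q, the recognition molecule of the classical pathway. Both lie on the minus strand of chromosome 5, C1qa (ENSRNOG00000012807) at positions 155261250 to 155264143 and C1qb (ENSRNOG00000012749) at positions 155246447 to 155252003, 9246 bases apart with C1qc between them. C1qa ran from 64.9 to 148 CPM in the CEA (median 94.2) and from 47.4 to 71.7 CPM in the PVN (median 64.0), with a log2 fold change of 0.62 ± 0.10 (edgeR adjusted p = 7.18e-06). C1qb ran from 31.1 to 111 CPM in the CEA (median 48.1) and from 25.2 to 48.5 CPM in the PVN (median 32.9), with a log2 fold change of 0.57 ± 0.13 (edgeR adjusted p = 0.000458). C1qa separated the regions in all but a few libraries, 11 of 12 in the CEA lying above the PVN range, whereas 6 of 12 did so for C1qb. C1qc, the remaining chain, named here after its values were seen, was 0.43 ± 0.12 higher in the CEA on the log2 scale (edgeR adjusted p = 0.00388).

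Promoter windows of C1qa, C1qb and Trem2 are shown because these are the members on which the values after surgery turn below and because the C1q genes varied together. They run from 250 bases before to 50 bases after each gene's start in RefSeq on the assembly GRCr8, another build than the table's. Capitals mark the letters GAGGAA and GGAAGT or their reverse complements, which match cores bound by PU.1 (Spi1) and other ETS factors. The motifs can share the letters GGAA.
C1qa, chr5:154419884-154420183, minus strand: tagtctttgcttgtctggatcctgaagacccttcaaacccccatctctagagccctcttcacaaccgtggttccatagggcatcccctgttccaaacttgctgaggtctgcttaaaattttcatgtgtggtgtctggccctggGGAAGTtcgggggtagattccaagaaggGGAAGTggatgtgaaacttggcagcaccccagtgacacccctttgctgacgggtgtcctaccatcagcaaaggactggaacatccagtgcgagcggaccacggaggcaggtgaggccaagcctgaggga
C1qb, chr5:154407778-154408077, minus strand: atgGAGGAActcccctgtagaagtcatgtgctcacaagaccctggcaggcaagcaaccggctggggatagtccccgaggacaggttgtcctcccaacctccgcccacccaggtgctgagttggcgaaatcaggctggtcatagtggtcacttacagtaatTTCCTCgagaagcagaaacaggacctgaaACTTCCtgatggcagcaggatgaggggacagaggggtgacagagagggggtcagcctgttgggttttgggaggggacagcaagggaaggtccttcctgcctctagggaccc
Trem2, chr9:20151730-20152029, minus strand: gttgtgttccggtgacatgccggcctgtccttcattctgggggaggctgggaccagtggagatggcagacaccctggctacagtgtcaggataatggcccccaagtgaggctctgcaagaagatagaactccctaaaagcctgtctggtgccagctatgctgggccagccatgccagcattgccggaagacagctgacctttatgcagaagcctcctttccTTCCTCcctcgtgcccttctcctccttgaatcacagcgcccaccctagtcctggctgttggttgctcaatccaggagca
The C1qa window holds 2 matches to GGAAGT and 0 to GAGGAA. The C1qb window holds 2 matches to GAGGAA and 1 to GGAAGT, and the Trem2 window 1 match to GAGGAA. Of the 9 genes, 6 had a window (C1qa, C1qb, Cd68, Csf1r, Cx3cr1 and Trem2), and each held at least 1 of these motifs on either strand. GAGGAA was in 4 of the 6 and in 27.6% of 33469 promoters, GGAAGT in 4 of the 6 and in 22.6%, and either motif in 42.3% of all promoters. These matches describe letters, not binding.

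Levels were compared between genes per kilobase of gene length. In the CEA the order of mean CPM per kilobase was C1qa (91.2), C1qb (48.7), Csf1r (34.1), Cx3cr1 (27.3), Tmem119 (19.3), P2ry12 (16.7), Trem2 (12.8), Aif1 (12.2) and Cd68 (1.07). Neighbours that differed by less than the larger of their SDs over 12 libraries were C1qb and Csf1r (SD 19.4 for C1qb), Tmem119, P2ry12 and Trem2 (SD 5.04 for P2ry12), and Trem2 and Aif1 (SD 1.64 for Aif1). The PVN held the same order except that Aif1 (7.79 CPM per kilobase) stood above Trem2 (7.0). There, Tmem119 (11.8) and P2ry12 (11.6) as well as Aif1 and Trem2 differed by less than the SD over libraries. The C1q transcripts stood at the top and Cd68 at the bottom in both regions.

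Next, the region difference was examined within each treatment, since the pooled value could rest on some treatments alone. All 9 genes were higher in the CEA in each treatment, with a median log2 fold change of 0.54 for NC, 0.996 for HT, 0.70 for EA and 0.49 for SEA. With 3 libraries against 3, the number with an adjusted p under 0.05 by edgeR was 4 for NC libraries and 6 for each of the other treatments. The share of all tested genes passing in these fits was 26.4% for NC, 21.3% for HT, 27.8% for EA and 30.5% for SEA. Among NC libraries, Cd68 (0.30), P2ry12 (0.57), C1qa (0.42), C1qb (0.28) and Aif1 (0.40) did not pass. Same-numbered NC libraries of the 2 regions deviated together in each of 3 pairs (correlation 0.130 to 0.293). With the replicate number as a block, a choice made after seeing the data, 5 members passed among NC libraries, as did 27.5% of genes. P2ry12 was the gene gained, at 0.58 ± 0.12 (edgeR adjusted p = 0.0242). Without the block, Trem2 and Csf1r passed in every treatment, whereas P2ry12 passed only in SEA. In group means, the 4 CEA groups stood above the 4 PVN groups for every gene but C1qb, whose mean was higher in PVN EA than in CEA NC. Nearly all neighbouring groups of the same region in these orders overlapped in range.

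**Figure D2:**
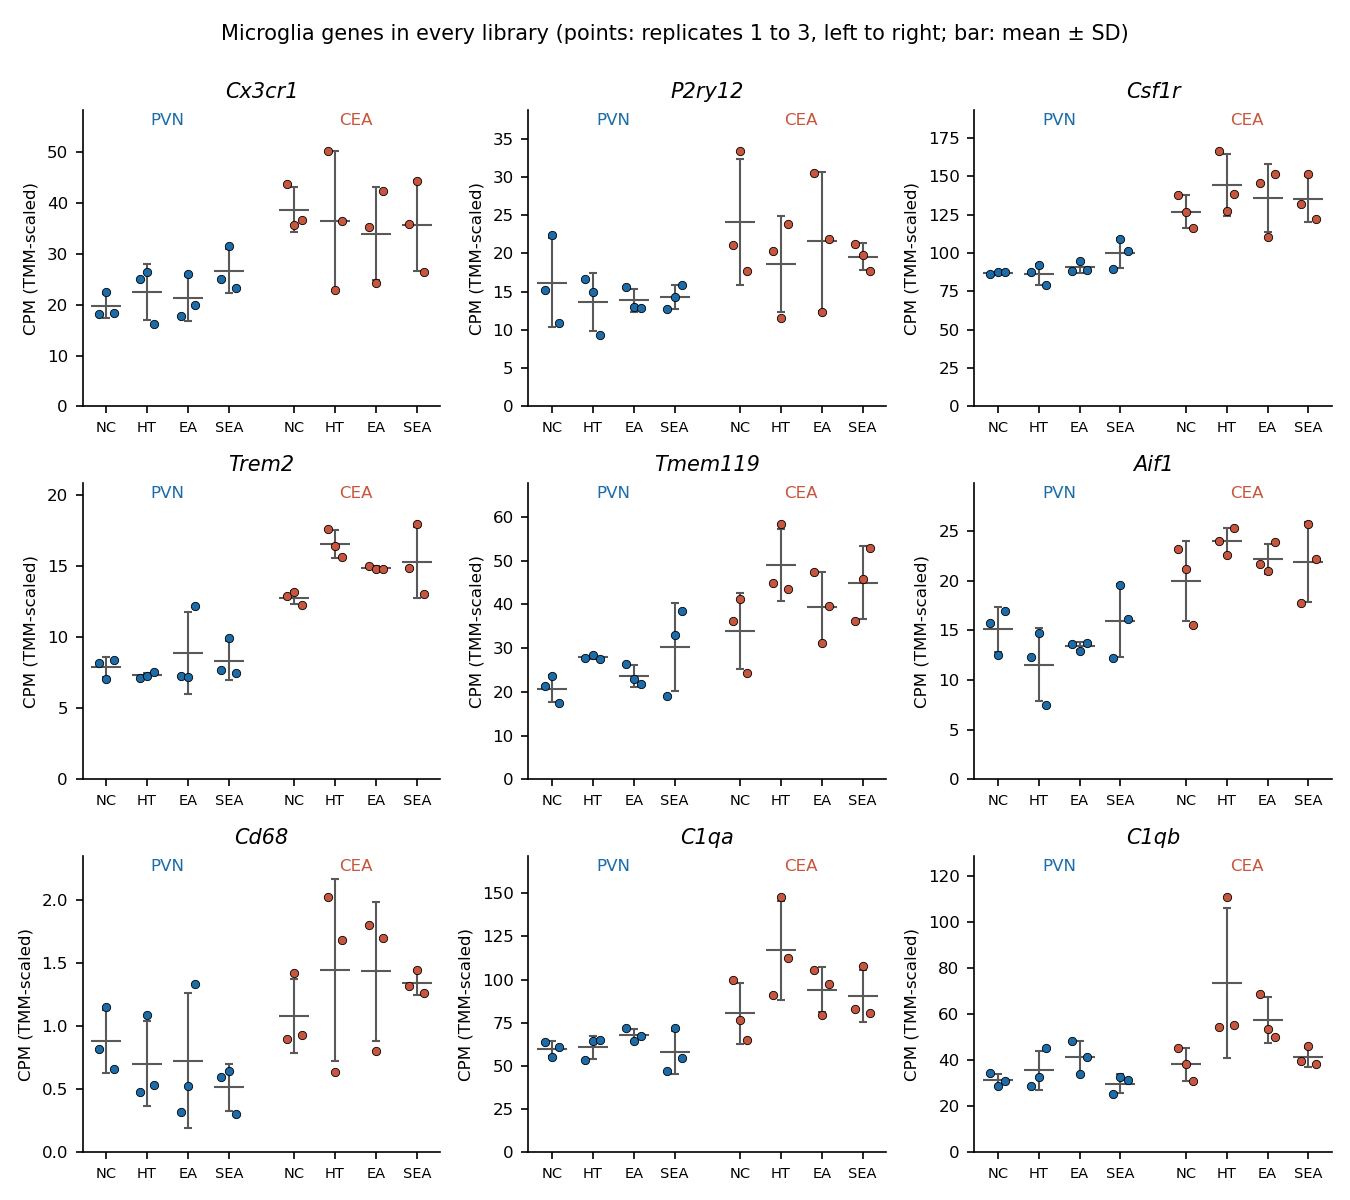
TMM-scaled CPM of each gene in every library (vertical axes start at 0), by region (blue PVN, red CEA) and treatment, with the mean and SD of each group of 3. The regions separate fully for Csf1r and Trem2, and CEA HT replicate 2 reaches 111 CPM for C1qb.

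To ask whether surgery changed these genes, HT was compared with NC in each region. No member reached an adjusted p under 0.05 by edgeR in either region. Counted at an unadjusted p under 0.05, it was 1 of 9 in the PVN, where 11% of 16727 genes did so, and 4 of 9 in the CEA, where 3.75% of 16413 genes did so. At the adjusted threshold 0.012% of the genes passed in the PVN and 0% in the CEA. DESeq2 gave 0 adjusted calls among the members in both regions as well. The median log2 fold change of the members was -0.01 in the PVN, equal to that of all genes, and 0.40 in the CEA, against 0.02 over all genes. Both comparisons are shown in the plot of treatment effects.

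In the CEA, C1qb was 45.5, 38.4 and 31.1 CPM in NC replicates 1 to 3 and 54.5, 111 and 55.2 CPM in HT. The groups did not overlap, and replicate 2 of HT was far above the rest. The log2 fold change was 0.96 ± 0.30 (edgeR unadjusted p = 0.0130, adjusted p = 0.918), and 0.55 without that replicate. C1qa was 99.8, 76.7 and 64.9 CPM in NC and 91.2, 148 and 112 CPM in HT, with a log2 fold change of 0.56 ± 0.22 (edgeR unadjusted p = 0.0368, adjusted p = 0.918). Its groups overlapped, since NC replicate 1 exceeded HT replicate 1, and the value without HT replicate 2 was 0.37. C1qc, with 32.8 to 45.8 CPM in NC and 48.9 to 94.5 CPM in HT, differed by 0.72 ± 0.27 on the log2 scale (edgeR adjusted p = 0.918), and by 0.37 without HT replicate 2.

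Trem2 in the CEA was 12.9, 13.1 and 12.3 CPM in NC and 17.6, 16.4 and 15.6 CPM in HT, without overlap. The log2 fold change was 0.40 ± 0.15 (edgeR unadjusted p = 0.0317, adjusted p = 0.918), and it was 0.41 without HT replicate 2. Tmem119 was 36.3, 41.3 and 24.4 CPM in NC and 44.9, 58.4 and 43.6 CPM in HT, also without overlap, with a log2 fold change of 0.55 ± 0.22 (edgeR unadjusted p = 0.0405, adjusted p = 0.918). Of the 9 genes, 3 (Tmem119, C1qb and Trem2) had no overlap between CEA NC and HT, as had 10.4% of all tested genes. The other 5 members had an unadjusted p over 0.05. The values were Cd68 at 0.44 ± 0.49, Aif1 at 0.29 ± 0.18, Csf1r at 0.21 ± 0.15, Cx3cr1 at -0.06 ± 0.27 and P2ry12 at -0.35 ± 0.33 (log2 fold change ± SE), with edgeR adjusted p of 0.918 to 0.977. Leaving out 1 library at a time, Cd68 ran from 0.12 to 0.79 and Csf1r from 0.083 to 0.29, lowest without HT replicate 1, Aif1 from 0.13 (without NC replicate 3) to 0.40, and P2ry12 from -0.57 to -0.034 (without NC replicate 2). Choroid plexus genes moved with this comparison, since the library with 1097 CPM of them is an NC library. Without that library the log2 fold changes were 0.97 for C1qb, 0.72 for Tmem119, 0.54 for C1qa and 0.42 for Trem2. Tmem119 was 0.36 without NC replicate 3, the lowest of its libraries.

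In the PVN, Tmem119 was 21.3, 23.7 and 17.4 CPM in NC and 27.7, 28.4 and 27.5 CPM in HT. All 3 HT libraries lay above the NC libraries, and 17.1% of all tested genes had no overlap in this comparison. The log2 fold change was 0.42 ± 0.14 (edgeR unadjusted p = 0.0151, adjusted p = 0.418). Without NC replicate 2 it was 0.53 with an edgeR adjusted p of 0.0198, in a fit where 3418 of 16939 genes passed, so the call turned on that library. The remaining PVN members had log2 fold changes from -0.39 ± 0.25 (Aif1) to 0.19 ± 0.20 (Cx3cr1), with edgeR adjusted p of 0.475 to 0.945. P2ry12 was at -0.25 ± 0.30, Csf1r at -0.01 ± 0.09, Cd68 at -0.33 ± 0.43, C1qa at 0.02 ± 0.11, C1qb at 0.18 ± 0.18 and Trem2 at -0.11 ± 0.15. Leaving out 1 library at a time, Aif1 ran from -0.61 to -0.16 and Cx3cr1 from 0.061 to 0.38, both with the upper end without HT replicate 3. In the same fits Cd68 ran from -0.79 to -0.088 and Trem2 from -0.19 to -0.068.

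Whether the surgery effect differed between regions was tested as an interaction. No member passed at the adjusted threshold, nor did any gene (0%). Trem2 had a difference of 0.48 ± 0.18 on the log2 scale (HT effect in the CEA minus that in the PVN; edgeR unadjusted p = 0.0222, adjusted p = 0.413) and was the only member of 9 with an unadjusted p under 0.05, where 12.1% of all genes had one. The median over the members was 0.48, against 0.01 over all genes. It was 0.32 without CEA HT replicate 2.

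**Figure D3:**
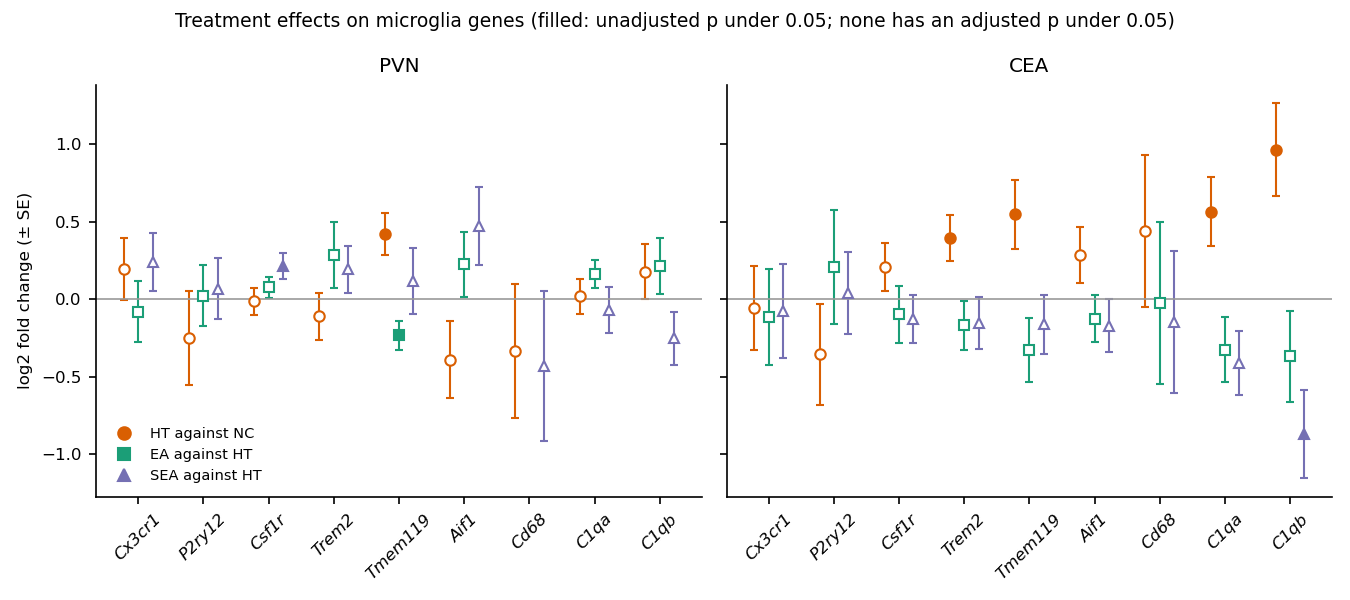
Log2 fold change with its SE for each gene (vertical axis) in HT against NC, EA against HT and SEA against HT, in the PVN (left) and the CEA (right), with filled symbols for an unadjusted p under 0.05. The 3 comparisons share the HT libraries, Cd68 was too low to be tested in PVN EA against HT, and the largest value is C1qb in CEA HT against NC (0.96).

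Electroacupuncture was compared with surgery alone (EA against HT). In the CEA, 0 of 9 members had an unadjusted p under 0.05 by edgeR (3.19% of all genes did), the adjusted p ran from 0.930 to 0.998, and the members' median log2 fold change was -0.13, against -0.02 over all genes. The summed level of CEA neuron genes was lower in all EA than in all HT libraries. C1qb was 69.1, 53.6 and 50.1 CPM in EA, overlapping the HT values given above, at -0.37 ± 0.29, and it turned to 0.060 without HT replicate 2. C1qa was 106, 79.8 and 97.2 CPM in EA, at -0.33 ± 0.21, and -0.12 without HT replicate 2. Tmem119 (47.3, 31.1 and 39.6 CPM) was at -0.33 ± 0.20. Trem2, at 14.98, 14.8 and 14.8 CPM, lay below all 3 HT libraries by -0.17 ± 0.16 and was the 1 member without overlap, as were 9.56% of all genes. P2ry12 was at 0.21 ± 0.37, Aif1 at -0.13 ± 0.15, Cx3cr1 at -0.12 ± 0.31, Csf1r at -0.10 ± 0.19 and Cd68 at -0.03 ± 0.52. EA replicate 2, the library with the low mitochondrial share, was the lowest EA library for Csf1r, C1qa, Tmem119, P2ry12, Cx3cr1, Aif1 and Cd68. Without it the members' median was -0.088, with Tmem119 at -0.19, C1qa at -0.22, C1qb at -0.32, P2ry12 at 0.48 and Cd68 at 0.26, and again 0 members passed the adjusted threshold by edgeR.

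In the PVN, 8 members were tested in EA against HT, Cd68 falling under the count filter. Their median log2 fold change was 0.12, against a value near 0 over all genes. Tmem119 was 26.4, 22.9 and 21.7 CPM in EA, below all 3 HT libraries, at -0.23 ± 0.09 (edgeR unadjusted p = 0.0363, adjusted p = 0.837). It was the 1 member of 8 with an unadjusted p under 0.05 (5.67% of all genes) and the 1 without overlap (11.3% of all genes). Trem2 was 7.24, 7.17 and 12.2 CPM in EA, the last being the highest PVN library for this gene, at 0.28 ± 0.21. The others were Aif1 at 0.23 ± 0.21, C1qb at 0.21 ± 0.18, C1qa at 0.16 ± 0.09, Csf1r at 0.08 ± 0.07, P2ry12 at 0.02 ± 0.20 and Cx3cr1 at -0.08 ± 0.20, with edgeR adjusted p of 0.915 to 0.995. Leaving out 1 library at a time, C1qb ran from 0.076 (without EA replicate 1) to 0.43 (without HT replicate 3), C1qa from 0.075 (without HT replicate 1) to 0.21 and Csf1r from 0.017 (without HT replicate 3) to 0.13. At the adjusted threshold 0.0961% of genes passed in the PVN and 0% in the CEA. In the interaction of the EA effect with region, no member passed the adjusted threshold and 0 of 9 had an unadjusted p under 0.05 (4.52% of all genes, with 0% at the adjusted threshold).

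Sham needling gave the following values. C1qb in CEA SEA was 39.8, 46.1 and 38.2 CPM, below the HT libraries, at -0.87 ± 0.28 against HT (edgeR unadjusted p = 0.0169, adjusted p = 0.959), and -0.44 without HT replicate 2. It was the 1 of 9 members with an unadjusted p under 0.05 (3.07% of all genes) and the 1 without overlap (10.1%). Against SEA, C1qb was higher in EA by 0.50 ± 0.15 in the CEA (edgeR unadjusted p = 0.0120, adjusted p = 0.9999; 1 of 9 members, 1.99% of all genes) and by 0.47 ± 0.14 in the PVN (edgeR unadjusted p = 0.00896, adjusted p = 0.917; 1 of 9 members, 5.21%). In the PVN it was 48.5, 33.9 and 41.6 CPM in EA and 25.2, 32.9 and 31.6 CPM in SEA. The other C1q chains differed less between EA and SEA, each with an edgeR unadjusted p over 0.05. C1qa was at 0.08 ± 0.16 in the CEA and 0.23 ± 0.13 in the PVN, and C1qc at 0.24 ± 0.25 and 0.20 ± 0.15. The EA and SEA groups did not overlap for C1qb in either region, a pattern found in 6.83% of genes in the CEA and 10.1% in the PVN. Csf1r in PVN SEA was 89.7, 109 and 101 CPM, against 87.4, 92.5 and 78.9 CPM in HT, a difference of 0.21 ± 0.09 (edgeR unadjusted p = 0.0359, adjusted p = 0.981; 1 of 9 members, 4.38% of genes), and 0.14 without SEA replicate 2. In that comparison 0 of 9 members had no overlap, against 9.85% of genes. No gene at all passed the adjusted threshold in SEA against HT or EA against SEA in either region (0% each).

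Setting all 9 operated libraries of a region against its 3 NC libraries gave 0 members at the adjusted threshold by edgeR in both regions (0.0639% of genes passed in the PVN and 0% in the CEA). No member was free of overlap, against 4.18% of PVN and 0.587% of CEA genes. In the CEA, Trem2 was higher by 0.29 ± 0.11 (edgeR unadjusted p = 0.0236, adjusted p = 0.9998) and C1qb by 0.55 ± 0.22 (edgeR unadjusted p = 0.0253, adjusted p = 0.9998), 2 of 9 members where 2.82% of genes had an unadjusted p under 0.05. Tmem119 differed by 0.38 ± 0.19, C1qa by 0.32 ± 0.17, Cd68 by 0.38 ± 0.37, Aif1 by 0.19 ± 0.14, Csf1r by 0.13 ± 0.12, Cx3cr1 by -0.12 ± 0.23 and P2ry12 by -0.27 ± 0.28. Without NC replicate 3 the values were 0.20 for Tmem119, 0.19 for C1qa, 0.037 for Aif1, 0.073 for Csf1r and -0.45 for P2ry12. Over the CEA fits that left out 1 library, Cd68 ran from 0.25 to 0.63 and Cx3cr1 from -0.22 to -0.038. In the PVN, Tmem119 differed by 0.38 ± 0.17 (edgeR unadjusted p = 0.0459, adjusted p = 0.161), 1 of 9 members where 29.8% of all genes had an unadjusted p under 0.05. The other 8 ran from -0.45 ± 0.42 (Cd68) to 0.25 ± 0.16 (Cx3cr1), with P2ry12 at -0.22 ± 0.20, Aif1 at -0.16 ± 0.18, Trem2 at 0.05 ± 0.17, C1qa at 0.05 ± 0.11, Csf1r at 0.08 ± 0.07 and C1qb at 0.16 ± 0.15. Leaving out 1 library at a time, Cd68 ran from -0.71 to -0.20 (without NC replicate 2), Aif1 from -0.27 to -0.061 (without NC replicate 3) and C1qb from 0.093 (without HT replicate 3) to 0.23. The members' median was 0.29 in the CEA and 0.05 in the PVN. NC libraries are shared with HT against NC, so these values are not independent of it.

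The remaining members complete the levels by library. Cx3cr1 in the PVN was 18.2, 22.4 and 18.4 CPM in NC, 25.1, 26.4 and 16.2 in HT, 17.7, 26.2 and 19.9 in EA and 25.1, 31.7 and 23.3 in SEA. In the CEA it was 43.8, 35.8 and 36.6 CPM in NC, 50.3, 22.9 and 36.4 in HT, 35.4, 24.3 and 42.4 in EA and 36.0, 44.4 and 26.5 in SEA. The spread within CEA HT thus covered the whole CEA range of this gene. P2ry12 in the PVN was 15.2, 22.4 and 10.9 CPM in NC, 16.6, 14.98 and 9.37 in HT, 15.6, 13.02 and 12.9 in EA and 12.8, 14.2 and 15.8 in SEA. In the CEA it was 21.1, 33.4 and 17.7 CPM in NC, 20.3, 11.6 and 23.8 in HT, 30.5, 12.4 and 21.9 in EA and 21.2, 19.8 and 17.7 in SEA. NC replicate 2 was the highest library for P2ry12 in both regions.

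Aif1 in the PVN was 15.8, 12.6 and 17.0 CPM in NC, 12.3, 14.8 and 7.52 in HT, 13.7, 12.97 and 13.7 in EA and 12.2, 19.5 and 16.1 in SEA. In the CEA it was 23.2, 21.2 and 15.5 CPM in NC, 24.04, 22.6 and 25.3 in HT, 21.7, 21.0 and 23.9 in EA and 17.7, 25.7 and 22.2 in SEA. HT held both the lowest PVN library and the highest CEA mean of Aif1. Cd68 in the PVN was 0.823, 1.15 and 0.664 CPM in NC, 0.479, 1.09 and 0.537 in HT, 0.318, 0.527 and 1.33 in EA and 0.599, 0.647 and 0.303 in SEA. In the CEA it was 0.900, 1.42 and 0.928 CPM in NC, 2.02, 0.640 and 1.68 in HT, 1.80, 0.803 and 1.70 in EA and 1.32, 1.44 and 1.26 in SEA. Cd68 passed neither the adjusted nor the unadjusted threshold by edgeR in any treatment comparison that tested it.

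Csf1r in the CEA was 138, 127 and 116 CPM in NC, 167, 127 and 139 in HT, 146, 110 and 152 in EA and 132, 151 and 122 in SEA. In the PVN it was 86.1, 87.5 and 87.4 CPM in NC and 88.4, 94.7 and 89.0 in EA. Trem2 in the CEA was 14.8, 17.95 and 13.01 CPM in SEA. In the PVN it was 8.16, 7.08 and 8.41 CPM in NC, 7.13, 7.26 and 7.52 in HT and 7.67, 9.90 and 7.45 in SEA, so that 11 of 12 PVN libraries were under 10 CPM. Tmem119 in SEA was 19.2, 32.9 and 38.6 CPM in the PVN, the widest group of that region, and 36.2, 45.8 and 52.8 CPM in the CEA. C1qa in the PVN was 63.7, 55.1 and 61.2 CPM in NC, 53.3, 64.3 and 64.8 in HT, 71.7, 64.5 and 67.6 in EA and 47.4, 71.7 and 54.6 in SEA. In CEA SEA it was 82.8, 108 and 80.8 CPM, and C1qb in the PVN was 34.4, 29.0 and 31.1 CPM in NC and 28.7, 33.0 and 45.3 in HT.

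Next, it was asked whether the members varied together between libraries of the same group. Correlations were taken over the 24 libraries after the mean of each group was removed, and are descriptions over points that share dissection and library preparation. The 36 pairs had a median Pearson r of 0.29, from -0.49 (Cx3cr1 with C1qb) to 0.87 (Cx3cr1 with Csf1r), and 11 pairs were negative. Cx3cr1, Csf1r, P2ry12 and Cd68 were positively correlated with each other (0.49 to 0.87 over all libraries, 0.58 to 0.92 within the CEA and 0.085 to 0.75 within the PVN). So were C1qa, C1qb and Tmem119 (0.52 to 0.79, with 0.61 to 0.84 within the CEA and 0.40 to 0.70 within the PVN). These sets were read from the same correlations and were less distinct in the PVN. There, Tmem119 correlated with Csf1r at 0.53 and with P2ry12 at 0.52, against 0.42 with C1qa and 0.40 with C1qb. Aif1 correlated with Csf1r at 0.57 over all libraries and 0.83 within the PVN. Correlations without CEA HT replicate 2, an extreme library for several of these genes, are not reported here. C1qc correlated with C1qa at 0.81 and with C1qb at 0.85. Cx3cr1 with C1qb was negative within each region, -0.70 in the PVN and -0.40 in the CEA over 12 libraries each.

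**Figure D4:**
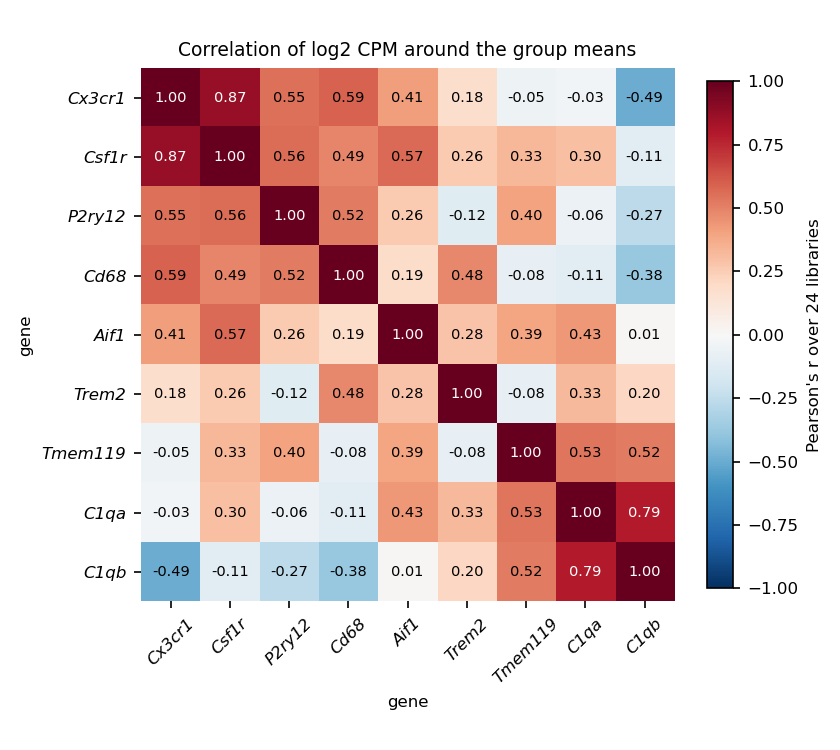
Pearson correlation of log2 CPM between each pair of genes over 24 libraries after group means were removed, from -1 (blue) to 1 (red). Cx3cr1 and Csf1r are the closest pair (0.87), C1qa and C1qb reach 0.79, and Cx3cr1 with C1qb is the most negative (-0.49).

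The extremes of several genes lay in the same libraries. CEA HT replicate 2 was the highest CEA library for C1qa (148 CPM), C1qb (111 CPM) and Tmem119 (58.4 CPM) and the lowest for Cx3cr1 (22.9 CPM), P2ry12 (11.6 CPM) and Cd68 (0.640 CPM). The same library had the highest summed level in the CEA of the list of phagocytosis and lysosome genes (3007 CPM, against 2052 to 2282 CPM in the other 11) and the lowest of endothelial and pericyte genes (413 CPM, against 548 to 805 CPM). PVN HT replicate 3 was the lowest PVN library for Aif1, Cx3cr1, P2ry12 and Csf1r and the second highest for C1qb. CEA NC replicate 3 was the lowest CEA library for Aif1, Tmem119, C1qa, C1qb and Trem2. The ratio of C1qb to C1qa counts ran from 0.427 to 0.751 in the CEA and from 0.458 to 0.699 in the PVN, with the top value of each region in CEA HT replicate 2 and PVN HT replicate 3. What sets these libraries apart was not tested.

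The genes most like the members were those with the highest correlation to the mean of the 9 over 24 libraries, group means removed, among 16206 genes with a symbol. They were Ptpn6 (0.89), Pld4 (0.86), Ifi44 (0.84), Stat2 (0.82), RGD1561662 (0.82), Postn (0.81), C5ar1 (0.80), Gbp2 (0.79), Ptafr (0.79) and RGD1309362 (0.78). Ptpn6 encodes a phosphatase of blood cell lineages, C5ar1 the receptor for complement fragment C5a, Ptafr the receptor for platelet-activating factor, and Ifi44, Stat2 and Gbp2 belong to the interferon response. RGD1561662, Postn and RGD1309362 were each under 1 CPM on average. The mean of the 9 did not stand for each member alike. C1qb correlated at -0.08 with the mean of the other members, and Cd68 and P2ry12 spread most around their group means (SD 0.56 and 0.43 in log2 CPM). At the other end of the ranking were Klhdc2 (-0.86) and Rnf8 (-0.83), so correlations of nearly this size occurred in both directions.

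Other genes of the same cells were examined in the region comparison, by lists, against a background of 26.9% of all tested genes higher and 29.4% lower at the adjusted threshold and a median of -0.01. Of 16 tested homeostatic microglia genes, 11 were higher in the CEA and 1 lower at an adjusted p under 0.05 by edgeR, with a median log2 fold change of 0.46. Sall1, a transcription factor of microglia also used in other tissues, differed by 0.66 ± 0.07 and Tgfbr2 (a TGF-beta receptor) by 0.81 ± 0.13. Sparc, which astrocytes express at high level, was the gene that was lower (-0.67 ± 0.09). Of 13 genes of the myeloid lineage and CSF1 receptor ligands, 10 were higher and 1 lower (median 0.49), with the transcription factors Ikzf1 at 0.89 ± 0.12 and Cebpa at 0.85 ± 0.09 and the phosphatase Inpp5d at 0.68 ± 0.08. The ligands of Csf1r, named after their values were seen, had other values than the receptor. Il34 was at -0.25 ± 0.07 (edgeR adjusted p = 0.00287), lower in the CEA, and Csf1 at -0.14 ± 0.07 (edgeR adjusted p = 0.0938).

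Partners of Trem2 and of fractalkine signalling included 6 higher and 1 lower of 8 tested (median 0.51). Cx3cl1, the neuronal ligand of Cx3cr1, was 358 to 571 CPM in the CEA and 162 to 295 CPM in the PVN, without overlap, at 0.95 ± 0.09. Adam17, the protease that sheds fractalkine, was at 0.55 ± 0.06, the Trem2 adaptor Tyrobp at 0.50 ± 0.09 and the kinase Syk at 0.51 ± 0.11. Genes that phagocytes use gave 14 higher and 2 lower of 21 (median 0.29), with the protease Ctss at 0.65 ± 0.08, Lyz2 (lysozyme) at 0.59 ± 0.07, Ctsl at 0.38 ± 0.05 and the NADPH oxidase subunit Ncf1 at 0.78 ± 0.12. Complement genes were mixed, 7 higher and 4 lower of 15 (median 0.37). The membrane regulators Cd55 (-1.33 ± 0.08) and Cd59 (-0.59 ± 0.06) and the protease C1s (-0.83 ± 0.10) were lower.

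Genes linked to disease-associated microglia were 6 higher and 3 lower of 12 (median 0.53), led by Lpl (1.49 ± 0.16), which neurons and vessels also express, Gpnmb (0.97 ± 0.12) and Cd9 (0.69 ± 0.08), with Cd63 lower (-0.43 ± 0.08). Cytokine and inflammasome genes were 7 higher and 0 lower of 15 (median 0.40), among them Ptgs2 (1.26 ± 0.16), Il10ra (1.13 ± 0.18), Tlr2 (0.83 ± 0.16) and Tlr7 (0.68 ± 0.10). Antigen presentation genes were 3 higher and 0 lower of 10 (median 0.08), namely Cd86, Cd74 and RT1-DMb. These lists share cells with the members and, in places, genes with other cell types, so their direction does not add a separate measurement of microglia.

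**Figure D5:**
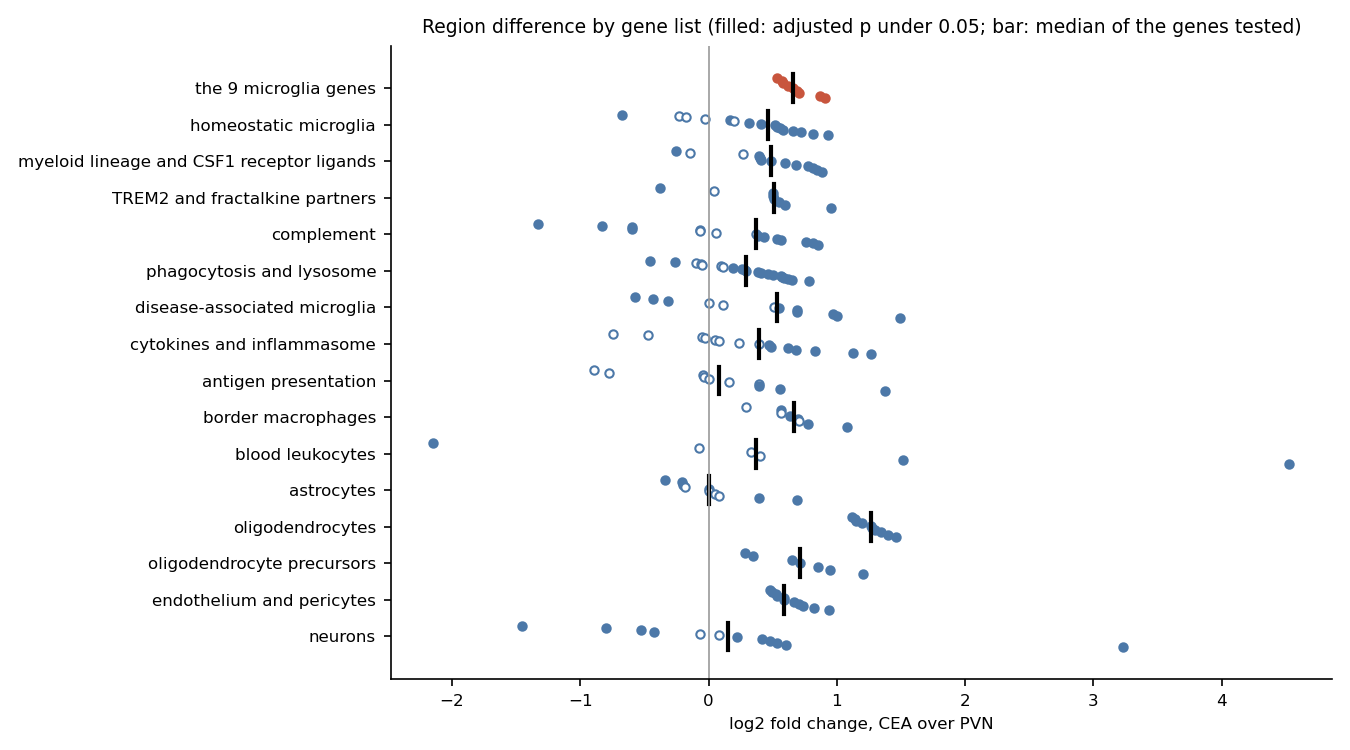
Log2 fold change of each tested gene between CEA and PVN (horizontal axis) by gene list, leaving out the lists of choroid plexus, red blood cells, PVN neurons and CEA neurons, with filled points for an adjusted p under 0.05 and a bar at the list's median. The 9 microglia genes (median 0.66) lie between astrocytes (0.00) and oligodendrocytes (1.27), and the farthest point to the right among the lists drawn, Cd3e among the blood leukocytes, is a fitted value against PVN libraries with 0 or 1 counts.

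Markers of other cells moved with the region as well. Border macrophage genes, shared in lineage with microglia, were 5 higher and 0 lower of 8 tested (median 0.67), Lyve1 (0.78 ± 0.11), Cd163 (1.08 ± 0.17), Stab1 (0.70 ± 0.11) and Pf4 (0.56 ± 0.18) among them. They summed to 24.9 to 31.7 CPM in the CEA and 12.4 to 21.7 CPM in the PVN, with 0 or 1 of 9 genes at 0 in a library. Blood leukocyte genes were 2 higher and 1 lower of 6 tested, and their 17 genes summed to 10.7 to 19.3 CPM in the CEA and 3.93 to 11.9 CPM in the PVN, with 3 to 9 of them at 0 in CEA libraries. Oligodendrocyte genes were higher in 10 of 10 (median 1.27, Mbp at 1.46 ± 0.10), their precursors' genes in 7 of 7 (median 0.72), and those of endothelium and pericytes in 11 of 11 (median 0.59, Vwf at 0.82 ± 0.11). Oligodendrocyte genes summed to 27757 to 45828 CPM in the CEA and 10572 to 17578 CPM in the PVN. Astrocyte genes were 2 higher and 3 lower of 10 (median 0.00), and neuronal genes, markers of glutamatergic and GABAergic neurons among them, 6 higher and 4 lower of 12 (median 0.15). The part of tissue composition in the difference of the microglia genes was not tested.

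None of the genes on the lists of microglia, myeloid, phagocytosis, complement, cytokine or macrophage genes reached an adjusted p under 0.05 by edgeR in a treatment comparison over all its libraries. In CEA HT against NC, where 3.75% of all genes passed the unadjusted threshold, it was passed by 0 of 16 homeostatic genes (median 0.10), 0 of 13 myeloid genes (median 0.21), 0 of 8 partners of Trem2 and fractalkine (median 0.07), 1 of 21 phagocytosis genes (median 0.06), 2 of 15 complement genes (median 0.04), 1 of 12 disease-associated genes (median 0.20), 0 of 14 cytokine genes (median 0.14), 0 of 7 antigen presentation genes (median 0.04) and 0 of 8 border macrophage genes (median -0.03). The genes that passed, named after their values were seen, were Ctss, Gpnmb, C1qc and C3, the central complement protein. Ctss was at 0.53 ± 0.16, Gpnmb at 0.64 ± 0.22, C3 at -0.88 ± 0.37 and C1qc as given above (edgeR adjusted p = 0.918 for each). HT replicate 2 had the highest CEA sum of disease-associated genes (6237 CPM, against 3177 to 4164 CPM) and of phagocytosis genes (3007 CPM). Values of Ctss and Gpnmb without that library are not reported here.

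In PVN HT against NC, where 11% of all genes passed the unadjusted threshold, it was passed by 2 of 16 homeostatic genes (median -0.05), 0 of 13 myeloid genes (median -0.01), 2 of 8 partners of Trem2 and fractalkine (median 0.20), 1 of 21 phagocytosis genes (median -0.07), 3 of 15 complement genes (median -0.01), 3 of 11 disease-associated genes (median 0.11), 0 of 15 cytokine genes (median -0.05), 2 of 8 antigen presentation genes (median -0.31) and 0 of 7 border macrophage genes (median -0.15). The disease-associated genes, again named after their values were seen, were Fabp5, a fatty acid carrier, at -0.67 ± 0.15, Cd9 at -0.46 ± 0.13 and Cd63 at -0.31 ± 0.12, all with HT libraries below NC libraries. The complement genes were C4a at -1.71 ± 0.46, C3 at -0.73 ± 0.25 and C1r at -0.61 ± 0.19, and the antigen presentation genes were Cd74 at -0.69 ± 0.26 and B2m at -0.30 ± 0.11. The rest were Rac2 at -0.74 ± 0.25, Lyz2 at -0.32 ± 0.12, Adam10 at 0.33 ± 0.12, Bhlhe41 at 0.40 ± 0.14 and Sparc at 0.25 ± 0.09. Each had an edgeR adjusted p of 0.418. The disease-associated genes summed to 4429 and 4498 CPM in NC replicates 1 and 3, which stood apart, against 3429 CPM in NC replicate 2 and 3083 to 3649 CPM in HT. Leaving out NC replicates 1, 2 and 3 in turn, a choice made after seeing the data, 2, 6 and 2 of the disease-associated genes and 0, 4 and 2 of the antigen presentation genes passed the unadjusted threshold, as did 4.17%, 35.4% and 4.61% of all genes in these fits. Without NC replicate 2, where 20.2% of genes passed the adjusted threshold, Fabp5 (edgeR adjusted p = 0.00304), Cd9 (0.00784) and Cd63 (0.0107) passed it.

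Markers of other cells are given here for treatment comparisons by list, with the number at an unadjusted p under 0.05 by edgeR. No gene on these lists passed the adjusted threshold in these comparisons. The share of all genes at the unadjusted threshold was 11% in PVN HT against NC and 3.75% in CEA HT against NC. Some lists are not reported here. In PVN HT against NC, choroid plexus and ependyma genes had 0 higher and 3 lower of 9 (median -0.54), red blood cell genes 0 and 2 of 4 (median -0.41), astrocyte genes 0 and 2 of 10 (median 0.085), PVN neuron genes 0 and 3 of 9 (median -0.25), and endothelium and pericyte genes 3 higher and 0 lower of 11 (median 0.26). Of other lists in that comparison, oligodendrocyte genes had 0 and 0 of 10 and their precursors' genes 0 and 0 of 7. Neuronal genes had 2 higher and 1 lower of 12, and CEA neuron genes 1 and 1 of 9. In CEA HT against NC, endothelium and pericyte genes had 2 higher and 0 lower of 11 (median 0.15), choroid plexus genes 0 and 2 of 10 (median -1.58), astrocyte genes 1 and 2 of 10 (median 0.03) and neuronal genes 0 and 0 of 12 (median -0.13).

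The share of all genes at the unadjusted threshold was 3.19% in CEA EA against HT and 3.07% in CEA SEA against HT. It was 5.67% in PVN EA against HT and 4.38% in PVN SEA against HT. In CEA EA against HT, CEA neuron genes had 0 higher and 2 lower of 9 (median -0.52). They summed to 2581 to 3676 CPM in EA and 4082 to 5822 CPM in HT, without overlap. PVN neuron genes had 1 higher and 0 lower of 7 (median 0.61) and choroid plexus genes 1 and 0 of 10 (median 0.67). In CEA SEA against HT, choroid plexus genes had 3 higher and 0 lower of 10 (median 2.15), endothelium and pericyte genes 0 and 2 of 11 (median -0.15) and CEA neuron genes 0 and 0 of 9 (median -0.26). In PVN EA against HT, choroid plexus genes had 3 higher and 0 lower of 9 (median 0.31) and PVN neuron genes 3 and 0 of 9 (median 0.17). In PVN SEA against HT, choroid plexus genes and PVN neuron genes each had 2 higher and 0 lower of 9. Oligodendrocyte genes had 2 and 0 of 10 there, their precursors' genes 2 and 0 of 7 and astrocyte genes 2 and 2 of 10. CEA neuron genes had 0 and 1 of 9, and endothelium and pericyte genes 0 and 0 of 11. The part of tissue composition in the treatment values of the microglia genes was not tested.

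The 1 listed gene with an adjusted p under 0.05 in any treatment comparison was Abcc9, a pericyte channel subunit, higher in operated than in NC rats in the PVN by 0.70 ± 0.11 (edgeR adjusted p = 0.0466).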

How the data were processed

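Groups and replicate numbers were read from the sample titles. The values deposited by the authors were whole-number read counts per gene, without normalization. Per the methods, reads filtered for adapters and quality were aligned by HISAT2 to mRatBN7.2 and assigned to genes by featureCounts (versions not stated). The submitters' processing notes list a human build, and gene ends in the table pass the end of mRatBN7.2 chromosome 1, so coordinates are printed as the table gives them. A stray second header line, left out here, exchanges CEA EA replicates 2 and 3; numbers follow the titles. Handling of reads with several positions was not stated.

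Members and gene lists were chosen with earlier results of these data known. Each comparison was fitted on its own groups (region: all 24 libraries with treatment as a covariate) with the two-sided quasi-likelihood test of edgeR 4.0.16 in R 4.3.3, after filterByExpr and TMM scaling, with Benjamini-Hochberg adjustment over all tested genes and a threshold of 0.05. Named genes were all members and, from each other list, the 4 of lowest p, or fewer, that passed the adjusted threshold; some of these are not reported here. CPM are TMM-scaled, errors are SE unless given as SD, and log2 CPM used a prior count of 2. Before TMM scaling 1 count was worth 0.0537 to 0.0760 CPM. Alternatives were DESeq2 1.42.0, other scalings, no count filter, a replicate block, 1 fit per region and leaving out each library. The fits were checked on simulated counts. Same-numbered libraries of CEA HT and NC deviated together (correlations 0.187 to 0.332 over 3 pairs), as did those of NC between regions, found from the data and not the labels; the block changed no call in CEA HT against NC. The methods name 12 rats and say that brain samples came from the same batch but not the same animal. How 24 libraries came from 12 rats is not stated. The main region fit treats its 24 libraries as independent, although same-numbered libraries of the 2 regions may share a rat. The p-values measure the spread between these samples.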

Additional observations from a re-analysis of the deposited data

How the results depend on the processing

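The higher level of all 9 microglia genes in the CEA kept its direction and its adjusted p under 0.05 with DESeq2, other scalings, no count filter, the replicate block and without any 1 library (members' median 0.61 to 0.70). Without scaling beyond the library total the median of all genes moved from -0.01 to -0.15 and that of the members from 0.66 to 0.52. With NC libraries alone 4 members passed (26.4% of genes), or 5 with the replicate block (27.5%). The number of members at an adjusted p under 0.05 was 0 in every treatment comparison under every alternative run, except 1 (Tmem119) in PVN HT against NC without PVN NC replicate 2 (range 0 to 1), where 20.2% of genes passed. By DESeq2 with an unadjusted p under 0.05, the study's threshold, the number of members, with the share of all genes DESeq2 tested, was 1 for PVN HT against NC (8%), 2 for PVN SEA against HT (1.99%), 2 for PVN EA against SEA (2.68%), 1 for PVN operated against NC (18.9%), 4 for CEA HT against NC (2.92%), 1 for CEA SEA against HT (2.36%), 1 for CEA EA against SEA (1.39%), 2 for CEA operated against NC (2.2%), 2 for the HT interaction (9.28%), and 0 for PVN EA against HT (3.01%), CEA EA against HT (2.68%) and the EA interaction (3.5%). Tmem119 in PVN EA against HT, with an unadjusted p of 0.0363 by edgeR, did not pass by DESeq2.

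Signs of small treatment differences turned in some settings, with no adjusted p under 0.05. In CEA EA against HT, without scaling, which moved the median of all genes from -0.02 to 0.10, Cd68 was 0.072 and Csf1r 0.0093. Leaving out 1 library at a time, log2 fold changes in PVN HT against NC ran from -0.073 to 0.044 (Csf1r), -0.47 to 0.062 (P2ry12), -0.044 to 0.10 (C1qa) and -0.034 to 0.31 (C1qb). In PVN EA against HT they ran from -0.27 to 0.047 (Cx3cr1), -0.19 to 0.19 (P2ry12), -0.017 to 0.42 (Trem2) and -0.0060 to 0.44 (Aif1). In PVN operated against NC they ran from -0.44 to 0.098 (P2ry12), -0.056 to 0.10 (Trem2) and -0.014 to 0.093 (C1qa). In the CEA they ran from -0.37 to 0.19 (Cx3cr1, HT against NC) and -0.45 to 0.050 (P2ry12, operated against NC), and in EA against HT from -0.38 to 0.29 (Cd68), -0.36 to 0.19 (Cx3cr1), -0.18 to 0.032 (Csf1r), -0.13 to 0.48 (P2ry12) and -0.54 to 0.060 (C1qb). The cause was not tested.

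With the replicate block, C1qb in CEA HT against NC was 0.90 and Tmem119 0.57, and 0 members passed the adjusted threshold. In each other comparison taken whole, at least 1 same-numbered pair did not deviate together, although the NC libraries of the 2 regions did in all 3 pairs. There the block left 9 members called between regions and 0 in each treatment comparison, and it turned Cd68 in CEA EA against HT to 0.020. Counting error weighs most on Cd68, with 5 to 31 counts per library.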
